A study of Mus musculus with 20 samples.

Results

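Fibcd1, Wfs1, Lmo3, Necab1 and Kctd4 are 5 mouse genes grouped under the name of hippocampal field markers, and they were followed here as carriers of N6-methyladenosine (m6A), the commonest internal modification of messenger RNA. Their members were taken as every listed edited site that carries one of the 5 symbols, which gave 76 of the 25978 distinct sites and 5 of the 3731 genes in the lists of hippocampus, cortex and cerebellum. The genes were chosen by their symbols, with their site numbers and mean levels in these same lists already known, so all values below are descriptions without a test.

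The mice expressed APOBEC1-YTH after tamoxifen. In this fusion a cytidine deaminase is joined to the m6A-binding YTH domain, and cytidines close to an m6A are read as uridines in RNA sequencing. APOBEC1-YTHmut mice, which received tamoxifen in the same way, served as the background control for such edits. All animals were given 20 mg/kg tamoxifen by intraperitoneal injection at 24 h intervals over 5 days and were sampled 7 days after the final dose. Whole hippocampus, whole cortex and whole cerebellum were each taken from 4 APOBEC1-YTH animals, with the same animal numbers in every region. Background libraries numbered 2 for hippocampus, 3 for cortex and 3 for cerebellum. The labels name no strain, age or promoter of the transgene. Each region is represented by 1 list with 1 editing level a site, read as the percentage of edited reads in the region's libraries combined. No value of a single animal exists in the lists, so no spread between animals can be given, and read depth is unknown. The lists held 13461 sites for hippocampus, 17878 for cortex and 11391 for cerebellum, with median levels of 2.82%, 2.91% and 3.36% in that order.

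The mark is written on nascent RNA by a methyltransferase complex and is found mostly near stop codons and in 3′ untranslated regions, where reader proteins of the YTH family bind it and influence the stability and translation of the transcript. The hippocampal formation is divided into the fields CA1, CA2 and CA3, the dentate gyrus and the subiculum, whose principal neurons are distinguished by genes that one field expresses more than the others. Wfs1, which encodes the endoplasmic reticulum membrane protein wolframin, and Fibcd1, which encodes a transmembrane receptor with a fibrinogen-like domain, are used as markers of CA1 pyramidal neurons in mouse. Lmo3 encodes a LIM-only protein, a transcriptional cofactor that has no DNA-binding domain of its own. Necab1 encodes a neuronal calcium-binding protein with EF-hand motifs. Kctd4 encodes a protein of the KCTD family, named for its potassium channel tetramerisation domain.

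The first question was how the sites of the 5 genes were distributed over the regions. All 5 genes were listed in hippocampus, 3 in cortex and 1 in cerebellum, where 68.3%, 84.8% and 59.7% of all genes were listed in that order. Their sites numbered 58 in hippocampus, 47 in cortex and 1 in cerebellum. Fibcd1 had 20 sites in hippocampus, 0 in cortex and 0 in cerebellum. Kctd4 had 3 in hippocampus and 0 in either other region. The genes split in this way: Fibcd1 and Kctd4 were listed in hippocampus alone, as were 5.23% of all genes, while Wfs1, Lmo3 and Necab1 were listed in cortex as well. Wfs1 had 10 sites in hippocampus, 9 in cortex and 1 in cerebellum. Lmo3 had 11 in hippocampus, 11 in cortex and 0 in cerebellum. Necab1 had 14 in hippocampus, 27 in cortex and 0 in cerebellum. Hippocampus thus had the most sites of the 3 regions in Fibcd1, Kctd4 and, by 1 site, Wfs1, but not in Lmo3 or Necab1.

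**Figure D1:**
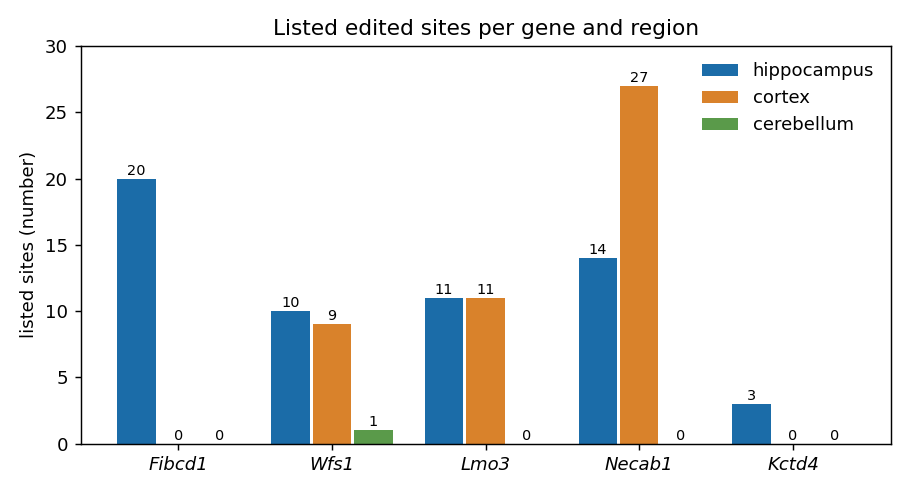
Number of listed edited sites (vertical axis) of each of the 5 genes in hippocampus, cortex and cerebellum, 1 list a region. Fibcd1 and Kctd4 have bars in hippocampus alone, Wfs1 and Lmo3 have nearly equal bars in hippocampus and cortex, and Necab1 has 14 sites in hippocampus and 27 in cortex.

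In the direct comparison of the forebrain regions, 3 of the 5 genes, Fibcd1, Wfs1 and Kctd4, had more sites in hippocampus than in cortex. Of the 3442 genes listed in either region, 21.8% did so, 60.1% had fewer sites in hippocampus, as Necab1 did, and 18.0% had equal numbers, as Lmo3 did. Since site numbers took part in the choice of the genes, nothing is read from this count. The hippocampal share of the 5 genes' hippocampal and cortical sites was 55.2%, against 43.0% for all genes. Fibcd1 carried this gap: without it the share was 38 of 85 sites, 44.7%. Fibcd1, Lmo3, Necab1 and Kctd4 had no cerebellar site, which was also true of 40.3% of all genes and of 13.8% of the 377 genes with 10 or more hippocampal sites. Transcript levels were not measured by these lists. A gene without a listed site is therefore not shown to be unmethylated. Less methylation, fewer expressing cells, less RNA per cell, read depth and site calling against unequal numbers of background libraries cannot be told apart.

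Among the genes of a region, Fibcd1 and Necab1 carried many sites. In hippocampus 136 of 2547 genes had more sites than Fibcd1, 225 had more than Necab1, 301 more than Lmo3, 332 more than Wfs1 and 967 more than Kctd4. In cortex 95 of 3163 genes had more sites than Necab1, 419 more than Lmo3 and 526 more than Wfs1. Within the 195 genes listed in hippocampus alone, 170 had 1 site, and the gene after Fibcd1 had 6. Kctd4 was 1 of 8 such genes with 3 or more sites.

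Fibcd1 was the gene with the strongest single site of the group. Its gene spans chromosome 2, positions 31813290 to 31846964, on the minus strand of mm10, and its 20 hippocampal sites lay between positions 31813750 and 31816356, over 2606 nt or 7.74% of the annotated length. All lay 460 to 3066 nt upstream of the annotated 3′ end. The transcript part (coding sequence or untranslated region) was not analysed here for any gene. Levels ran from 1.49% to 18.6%, with a median of 2.89% and a mean of 5.20% (SD over sites 4.61, n = 20 sites). The highest were 18.6% at position 31815625, 13.0% at 31815572 and 10% at 31815476. Sites of 10% or more made up 15.0% of the gene's sites, against 6.14% of all hippocampal sites, and 8 of its 20 sites reached 5%, as did 23.3% of all hippocampal sites. 242 of the 13461 hippocampal sites, 1.80%, had a level above that of its strongest site.

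Around the strongest Fibcd1 site, strong and weak sites alternated over short distances. The site at 31815589, with 1.49%, was the weakest of the gene and lay 17 nt from the site with 13.0% and 36 nt from the site with 18.6%. At 31815639, 14 nt on the other side of the strongest site, the level was 1.90%. Adjacent sites here, 14 to 36 nt apart, therefore differed by 8.75-fold, 12.5-fold and 9.79-fold. Other adjacent sites of the gene within 50 nt of each other differed less, by 1.13-fold to 3.66-fold. The closest pair, 5 nt apart at 31815869 and 31815874, had 5.56% and 6.29%. The sites formed a stretch of 18 over 1395 nt with a mean of 5.55%, and 2 isolated sites nearer the 3′ end with 1.92% and 2.16%. This division at gaps over 400 nt was chosen after the positions had been seen.

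Kctd4, the other gene listed in hippocampus alone, had 3 sites on the plus strand of chromosome 14. The first 2 were 146 nt apart and the third lay 2120 nt further on. Their levels were 2.02% at position 75963707, 3.81% at 75963853 and 6% at 75965973. The first 2 lay 1510 and 1364 nt before the annotated end of the gene (75955003 to 75965217), whereas the strongest lay 756 nt beyond it. Such a position outside the annotated 3′ end was held by 1.09% of the 25760 sites that could be placed. All 3 sites fall within the annotated span of Gtf2f2, which encodes a general transcription factor subunit and whose RefSeq promoter entry is on the minus strand, opposite to the strand given for the sites.

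**Figure D2:**
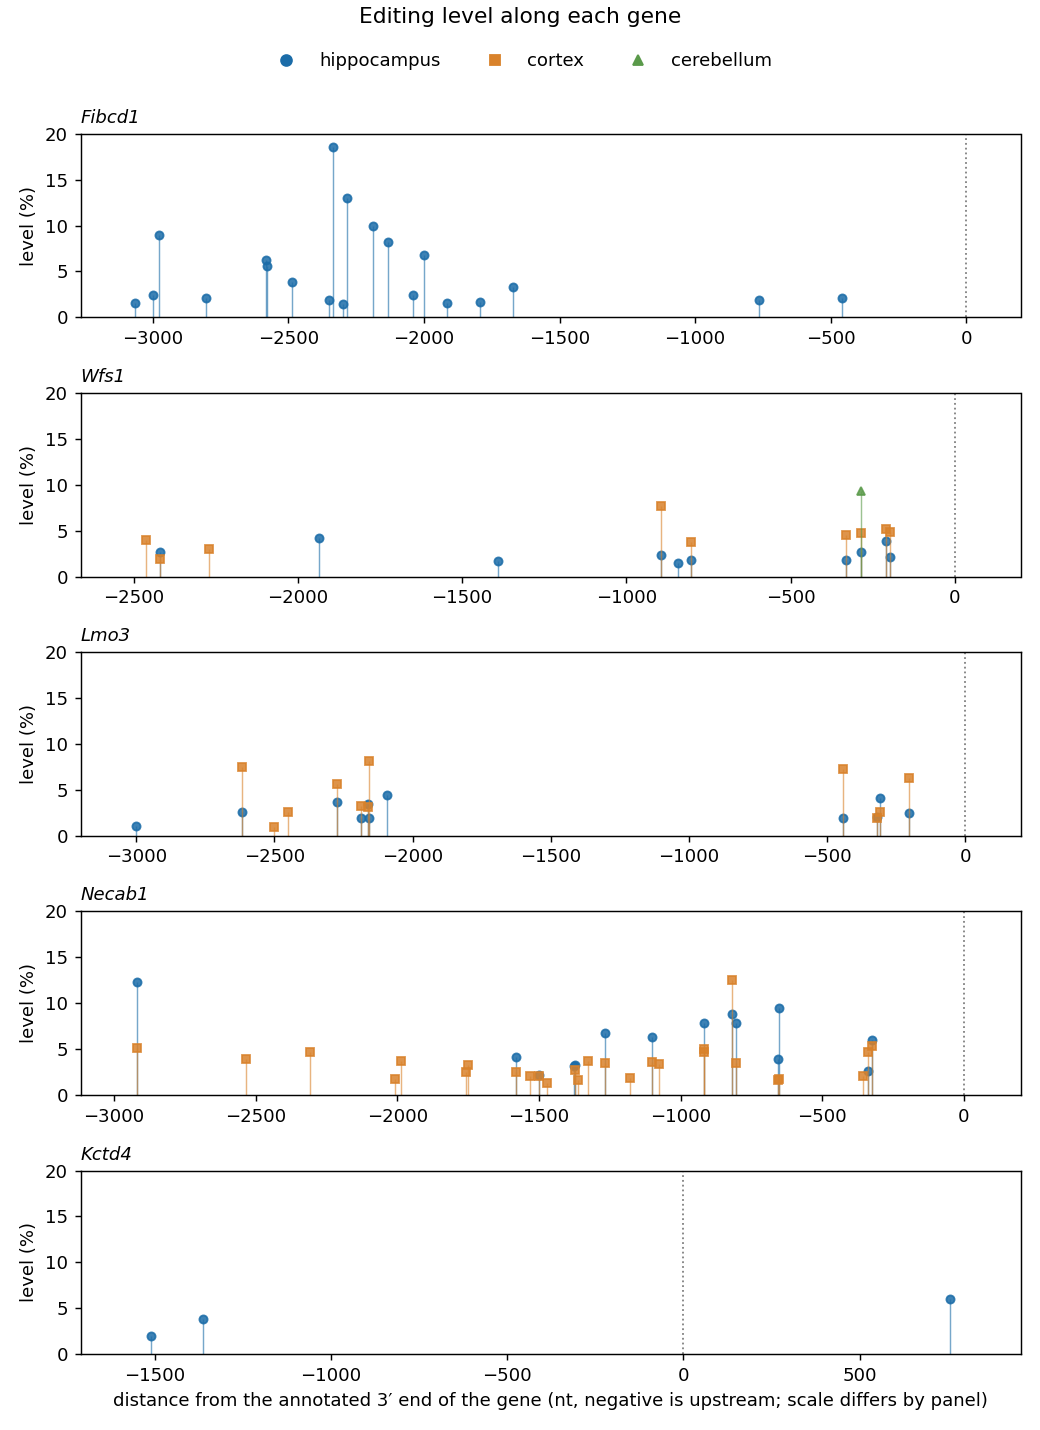
Editing level in percent (vertical axis, 1 value a site from the region's libraries combined) against the distance in nt from the annotated 3′ end of the gene (horizontal axis, dotted line at 0, negative values upstream, scale differing by panel), with hippocampus as circles, cortex as squares and the single cerebellar site as a triangle. The strongest Fibcd1 site reaches 18.6%, cortical squares stand above most hippocampal circles in Wfs1 and below most of them in Necab1, and 1 Kctd4 site lies beyond the annotated end.

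Wfs1 had nearly the same number of sites in hippocampus and cortex, at lower levels in hippocampus. The gene spans chromosome 5, positions 36966104 to 36988982, on the minus strand, and its 12 distinct sites lay between 36966301 and 36968565, from 197 to 2461 nt upstream of the 3′ end. Levels ranged from 1.48% to 4.24% in hippocampus (mean 2.48%, SD over sites 0.92, n = 10 sites), against 1.87% to 7.69% in cortex (mean 4.40%, SD 1.61, n = 9 sites). The 2 ranges overlapped. No hippocampal site of the gene reached 5%.

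At the 7 Wfs1 sites listed in both regions, the level was lower in hippocampus at 6. The largest difference was at position 36966999, with 2.38% in hippocampus against 7.69% in cortex. Position 36966301 had 2.09% in hippocampus and 4.88% in cortex, and position 36966435 had 1.85% and 4.49% in the same regions. At 36968523 the order was the opposite, with 2.67% in hippocampus and 1.87% in cortex. This exception was the only shared site among the 4 sites farthest from the 3′ end, so no pattern with position can be read. All 6 shared sites within 895 nt of that end were lower in hippocampus. The single cerebellar site of the 5 genes was at 36966389, where the level was 2.7% in hippocampus, 4.76% in cortex and 9.3% in cerebellum.

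Lmo3 showed the same order of levels with equal site numbers. Its annotated span on chromosome 6, 138362918 to 138582206 on the minus strand, covers 219289 nt, and the 13 distinct sites occupied the 1.28% of it between positions 138363122 and 138365919. A stretch of 4 sites lay 204 to 443 nt upstream of the 3′ end, followed after 1648 nt without a site by a stretch of 9. Hippocampal levels ranged from 1.02% to 4.39% (mean 2.7%, SD over sites 1.07, n = 11 sites), against 1.01% to 8.18% in cortex (mean 4.48%, SD 2.53, n = 11 sites). The hippocampal range thus lay within the lower part of the cortical one.

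Of the 9 Lmo3 sites shared by the 2 regions, 6 were lower in hippocampus and 3 higher. Position 138365076 had 1.90% in hippocampus against 8.18% in cortex, the largest difference in the gene. Position 138363361 had 1.96% in hippocampus against 7.29% in cortex, and position 138365535 had 2.6% in hippocampus against 7.5% in cortex. The 3 sites that were higher in hippocampus had 4.12% in hippocampus and 2.56% in cortex at 138363227, 2.08% and 1.94% at 138363236, and 3.50% and 3.16% at 138365079. The last of these lies 3 nt from the site with the largest difference in the other direction.

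Necab1 combined fewer hippocampal sites with higher hippocampal levels. It spans chromosome 4, positions 14952245 to 15149804, on the minus strand, and its 28 distinct sites lay between 14952570 and 14955163, in 1.31% of the annotated length. Levels ranged from 2.15% to 12.3% in hippocampus (mean 6.05%, SD over sites 3.0, n = 14 sites), against 1.34% to 12.5% in cortex (mean 3.49%, SD 2.18, n = 27 sites). The ranges overlapped almost wholly, while the medians were 6.19% in hippocampus and 3.43% in cortex. Of the 377 genes with 10 or more hippocampal sites, 31 had a higher mean level than Necab1 and 54 a higher one than Fibcd1, while 305 and 331 had a higher one than Lmo3 and Wfs1 in that order.

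At 11 of the 13 Necab1 sites shared by the 2 regions the level was higher in hippocampus. Position 14952899 had 9.47% in hippocampus against 1.74% in cortex, a 5.44-fold difference and the largest in the group. Position 14955163, the site farthest from the 3′ end, had 12.3% in hippocampus against 5.13% in cortex. The 2 exceptions were 14953063, with 8.87% in hippocampus and 12.5% in cortex, and 14952585, with 2.61% and 4.72%. The strongest cortical site was therefore lower in hippocampus, whereas 11 of the 12 weaker ones were higher. The 5 sites nearest the 3′ end, at 14952570 to 14952902, also lie within the annotated span of the predicted gene Gm11837, whose strand was not used here.

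Hippocampal sites of Necab1 were nearly a subset of the cortical ones. Of its 14 hippocampal sites 13 were listed in cortex, and of its 27 cortical sites 13 were listed in hippocampus. The 14 cortical sites that hippocampus lacked had a median cortical level of 2.86% (1.34 to 5.06%), against 3.49% (1.61 to 12.5%) for the shared ones. Of these 14, 6 lay in an interval of 1337 nt between positions 14953826 and 14955163 that held no hippocampal site, with cortical levels of 1.74% to 4.63%. Hippocampal editing there below 1.0%, the lowest level of the list, would not be seen. In Wfs1 7 of 10 hippocampal and 7 of 9 cortical sites were shared, and in Lmo3 9 of 11 of either region. Fibcd1 and Kctd4 shared no site with another region, so that the 5 genes together shared 29 of 58 hippocampal sites, 50%, with cortex. Over all genes, 69.7% of hippocampal sites were found in cortex and 52.5% of cortical sites in hippocampus. Over the genes listed in both regions, which exclude Fibcd1 and Kctd4, these shares were 71.6% and 57.4%. The share of hippocampal sites found in cortex was 70.0% in Wfs1, 81.8% in Lmo3 and 92.9% in Necab1.

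**Figure D3:**
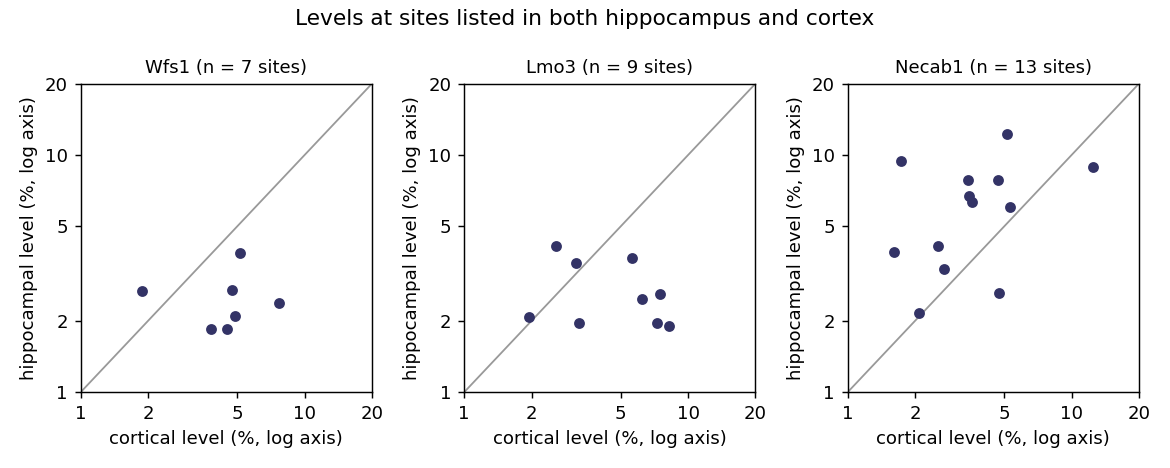
Hippocampal level against cortical level in percent (both axes logarithmic) for every site of Wfs1, Lmo3 and Necab1 that is listed in both regions, with the line of equal levels. For Wfs1 6 of 7 points and for Lmo3 6 of 9 lie below the line, and for Necab1 11 of 13 lie above it.

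The size of these differences was set beside all genes. Over the 9379 sites shared by hippocampus and cortex, 48.4% were higher and 51.2% lower in hippocampus, and 84.6% of the pairs of levels lay within 2-fold of each other. The shares within 2-fold were 3 of 7 in Wfs1, 5 of 9 in Lmo3 and 9 of 13 in Necab1. The median log2 ratio of the hippocampal to the cortical level was -1.05 for Wfs1, -0.73 for Lmo3 and 0.74 for Necab1. Among the 570 genes with 5 or more shared sites this median had quartiles of -0.20 and 0.19. In that set 1 gene, Ppt1, lay below Wfs1, 6 lay below Lmo3, and 2, Pigk and Elk1, lay above Necab1 (named after their values had been seen). In 8.25% of these genes, Necab1 among them, 75% or more of the shared sites were higher in hippocampus, and in 12.1%, Wfs1 among them, 75% or more were lower. Fewer sites in hippocampus together with a positive median ratio, the combination seen in Necab1, occurred in 28.4%.

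The 3 genes thus stood near the ends of the distribution, and in both directions. Their mean levels in these lists were known when they were chosen, so nothing is read from these ranks or those that follow. With genes of 3 or more shared sites, 7 of 898 lay below Wfs1, 25 below Lmo3 and 19 above Necab1. With 9 or more, a limit that Lmo3 just meets and Wfs1 does not, no gene of 285 lay below Lmo3 and none above Necab1. Both limits were tried after the data had been seen. Taken over their 29 shared sites the opposite directions cancelled, with 15 sites higher and 14 lower in hippocampus and a median difference, hippocampus minus cortex, of 0.07 percentage points, against -0.04 over all genes. The pooled lists give no replicate error for these levels, so whether a difference of this size would recur between animals is not known.

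**Figure D4:**
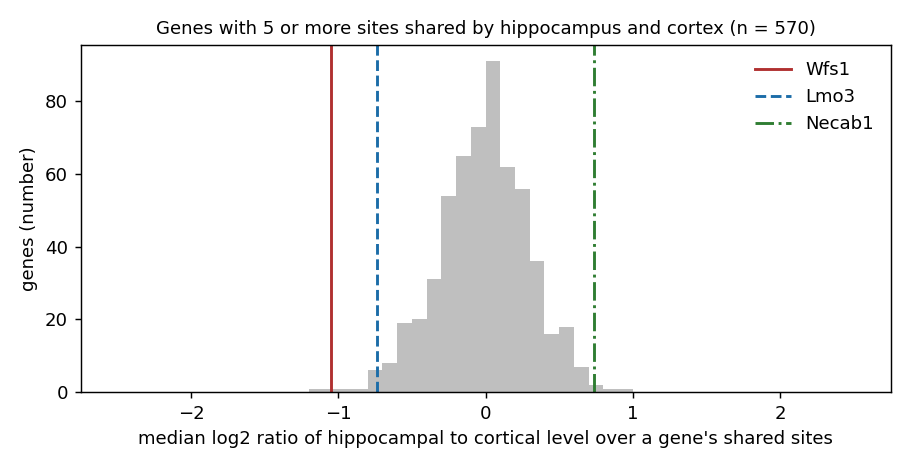
Distribution of the median log2 ratio of hippocampal to cortical level over the 570 genes with 5 or more sites shared by the 2 regions (horizontal axis, ratio; vertical axis, number of genes). Vertical lines mark Wfs1 at -1.05, Lmo3 at -0.73 and Necab1 at 0.74, near the low and the high end.

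The sites of all 5 genes lay near the 3′ end, as those of most listed genes do. In each gene they spanned 2264 to 2797 nt, all of it within 3066 nt of the annotated 3′ end on either side. The 789 matched genes with 10 or more distinct sites had a median span of 3086 nt with quartiles of 1527 and 10328. The spans of Fibcd1, Wfs1, Lmo3 and Necab1 were thus ordinary. Kctd4, with 3 sites, is outside that set. The median site lay 2290.5 nt upstream of that end in Fibcd1, 2161 in Lmo3, 1364 in Kctd4, 1344.5 in Necab1 and 869.5 in Wfs1, measured along the genome. All genes together had a median of 1184.5 nt with quartiles of 544 and 2491, and all 5 medians lay within those quartiles. The median distance between neighbouring sites was 49 nt in Necab1, 76 in Wfs1, 90 in Fibcd1 and 96 in Lmo3, against 52 nt (quartiles 36 and 80) over the 793 genes with 10 or more distinct sites. Necab1 sites were as dense as in a typical such gene. Those of Wfs1 were more widely spaced but within these quartiles, and those of Fibcd1 and Lmo3 lay beyond the upper one.

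The genes whose site numbers were most like those of each member were found by the distance between log2(sites + 1) in the 3 regions. Closest to Fibcd1 were Nr3c2, the mineralocorticoid receptor gene, with 6 sites in hippocampus, 0 in cortex and 0 in cerebellum, Sertm1 with 12, 2 and 0, and Crim1 with 8, 1 and 1. The distances of these 3, between 1.59 and 1.87, were larger than those of the genes named for any other member. With the share of a gene's sites in each region in place of log2 numbers, the nearest genes lay at a distance of 0 from Fibcd1. Predicted genes were passed over, and Fibcd1 was chosen with its site numbers known, so nothing is read from these distances. Closest to Wfs1 were Ttc19 (9 sites in hippocampus, 10 in cortex, 1 in cerebellum), Git1 (12, 9, 1) and Lingo1 (12, 10, 1). Lmo3 was matched exactly by Gpd2, with 11 sites in hippocampus, 11 in cortex and 0 in cerebellum, followed by Cnksr2 (10, 11, 0) and the presynaptic scaffold gene Bsn (11, 10, 0). Closest to Necab1 were the guanine deaminase gene Gda (13, 27, 0), the potassium channel gene Kcnq5 (13, 21, 0) and the neuronal transcription factor gene Myt1l (13, 20, 0). Kctd4 was matched by Eif4b with 3 sites in hippocampus alone, and followed by Hars and Zbtb20 with 4 each.

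Lists of genes used as markers of single hippocampal fields were looked up next. Fibcd1 and Wfs1 are in the CA1 list, while Lmo3, Necab1 and Kctd4 are in none of these field lists. The CA1 list held 10 symbols, 1 of them an older name. Of these, 6 had more sites in hippocampus than in cortex, where 21.8% of all genes listed in either region did. Fibcd1 and Wfs1 are 2 of these 6 and were chosen with their numbers known. Mpped1 had 25 sites in hippocampus, 22 in cortex and 0 in cerebellum, and Ccn3, a secreted matricellular protein gene, had 7, 5 and 0. At shared sites Mpped1 was higher in hippocampus at 6 of 19 and Ccn3 at 2 of 5, beside 1 of 7 in Wfs1. Over all genes 48.4% of shared sites were higher there. No trait of the CA1 list is read from these genes, which were named for their site numbers.

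The lists of the other fields held fewer listed genes. Of all listed genes, 68.3% had a site in hippocampus, 84.8% in cortex and 59.7% in cerebellum. More sites in hippocampus than in cortex were held by 21.8% of the genes listed in either. The counts below are to be read beside these shares, and nothing is read from them. In the CA2 list 3 of 8 genes were listed. These were Necab2, a paralogue of Necab1, with 7 sites in hippocampus, 3 in cortex and 0 in cerebellum, Rgs14 with 2, 0 and 0, and Pcp4 with 1, 0 and 2. The CA3 list had 2 of 10 symbols listed, Spock1 with 12, 14 and 8 and Elavl2 with 0, 2 and 0. The dentate gyrus list had 4 of 13, C1ql3 with 3, 4 and 0, C1ql2 with 2, 0 and 0, Calb1 with 0, 1 and 45 and the opioid precursor gene Pdyn with 0, 5 and 0. Tshz2 was the one listed gene of 5 in the subiculum list, with 30, 14 and 0. Prox1, the defining transcription factor of dentate granule cells, had no listed site in any region, and since only edited transcripts are listed this says nothing on its expression.

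Markers of other regions were checked in the same way. Their counts are also to be read beside the 68.3%, 84.8% and 59.7% of all genes listed in hippocampus, cortex and cerebellum. Of 8 listed Purkinje cell genes, 2 had hippocampal sites, 4 in all, against 11 sites in cortex and 272 in cerebellum. These 2 were Itpr1 with 3 sites and Rgs8 with 1 in hippocampus. The cerebellar granule cell list had 3 sites in hippocampus, 5 in cortex and 4 in cerebellum, from Etv1 and Zic1. Neocortical layer markers had 7 sites in hippocampus, 37 in cortex and 47 in cerebellum, of which 45 belonged to Calb1, a member of 3 of these lists. Bcl11b and Etv1 had 3 hippocampal sites each. Choroid plexus markers had 0 in hippocampus, 0 in cortex and 9 in cerebellum, from Ttr and Kl, and markers of the adjoining thalamus and striatum 0, 5 and 41, most of them from Rora, which the Purkinje cell list also holds. Tissue carried over in dissection was not tested beyond these numbers.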

How the data were processed

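Bulk poly(A) RNA-seq libraries (20) were made from 900 ng of total RNA with a directional kit, per the labels' protocols. STAR 2.7.5 and the build mm10 are named in the submitters' processing notes, and the series design gives APOBEC1-YTHmut libraries as the background. How sites were called, with which thresholds, and how a region's libraries were merged is not given in the sources used here. Each deposited list has 6 columns and no header. The fifth holds a fraction between 0 and 1, deposited by the authors and read here as the share of edited reads (an assumption), printed as percent. Depth is unknown, so no interval for counting error can be given.

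Positions are 1-based. In RefSeq promoter windows, 66 of 66 matches between a site and a window had a cytidine there on the site's strand. Gene spans came from the RefSeq table of GRCm38.p6, the assembly of mm10. No genome sequence or exon annotation was used.

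A site was shared when chromosome, position and strand were identical. No test was made, because the members and all gene lists were chosen with earlier results of these data known and each region has 1 pooled list. The rule for named genes took the 3 genes nearest to each member by log2(sites + 1), passing over predicted genes, and up to 4 genes of a list with the most hippocampal sites. Other genes are marked where they are named, and 1 gene of a list is not reported here. The counting steps recovered planted values on simulated data whose sites lay more than 50 nt apart. Merging of sites and sharing between unlike positions could not occur there, so those steps were not checked. This was a check of the code and bears on no result. Alternatives were minimum levels of 5% and 10%, merging within 10 or 50 nt, sharing within 10 or 50 nt, scaling of lists, and 1 value a gene. The tools were matplotlib 3.10.9, scipy 1.17.1, pandas 2.3.3, numpy 2.4.6 and Python 3.11.15.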

Additional observations from a re-analysis of the deposited data

How the results depend on the processing

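Site numbers of the 5 genes depended on the minimum level. At 5% or more they had 17 sites in hippocampus and 11 in cortex, and at 10% or more 4 in hippocampus, 1 in cortex and 0 in cerebellum, so that the hippocampal share of the hippocampal and cortical sites became 80.0%. Without Fibcd1 this share was 44.7%, on the other side of equal numbers from the 55.2% with it. Merging sites within 50 nt left 42 in hippocampus and 28 in cortex. Sharing within 50 nt gave 2 sites common to hippocampus and cerebellum in place of 1. The median difference between hippocampus and cortex over shared sites was 0.07 percentage points over sites and -2.18 with 1 mean a gene, because Wfs1 and Lmo3 were lower in hippocampus and count as 2 of 3 genes, while Necab1, higher there, holds 13 of the 29 sites. The scaled lists gave 0.14 for this median. The median log2 ratios of Wfs1, Lmo3 and Necab1 kept their signs after scaling (-1.005, -0.69 and 0.78) and without each gene's largest difference (-0.93, -0.67 and 0.72). The genes named as most like each member were all different when shares of sites replaced log2 numbers. No paired analysis was possible because each region is 1 combined list, and for the same reason no animal could be left out. Depth, expression and the spread between animals limit every comparison.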

Other observations

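Relatives of the 5 genes in sequence or function were looked up in lists written with earlier results known. Of all listed genes, 68.3% had a site in hippocampus, 84.8% in cortex and 59.7% in cerebellum, and the counts below are to be read beside these shares. Of 21 genes for neuronal EF-hand calcium-binding proteins, to which Necab1 belongs, 20 were listed in some region, 15 in hippocampus, 19 in cortex and 16 in cerebellum. Most sites in hippocampus belonged to Ncald (24 in hippocampus, 26 in cortex, 10 in cerebellum), the visinin-like protein gene Vsnl1 (23, 26, 13), the neuronal calcium sensor gene Ncs1 (18, 21, 21) and the astrocyte-enriched gene S100b (18, 19, 19). At the sites shared by hippocampus and cortex, S100b was higher in hippocampus at 13 of 16 and Vsnl1 at 12 of 23, whereas Ncs1 was higher at 5 of 16 and Ncald at 7 of 22. The family thus held both directions at shared sites.

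The KCTD family had 10 of 22 members listed, 7 in hippocampus, 8 in cortex and 4 in cerebellum. Kctd12, which encodes an auxiliary subunit of the GABA-B receptor, had 9 sites in hippocampus, 5 in cortex and 40 in cerebellum. Kctd13 had 7, 7 and 2 in these regions and Kctd1 had 3, 8 and 2. Of the endoplasmic reticulum genes listed with Wfs1, 9 of 15 had a site, 6 in hippocampus, 7 in cortex and 9 in cerebellum. Sel1l, a component of the degradation machinery for misfolded proteins, had 28, 37 and 32 sites, the chaperone gene Canx 9, 13 and 8, and the chaperone gene Hspa5 3, 2 and 4. Lmo4 had 3, 6 and 0, and Necab2 and Lmo4, like Lmo3 and Necab1, had no cerebellar site. Of 16 genes for proteins with a fibrinogen-like domain, Tnr, which encodes tenascin-R, was listed beside Fibcd1, with 5, 10 and 0 sites.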
